A study of Mus musculus with 4 samples.

Results

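Alveolar macrophages were examined in single-cell RNA sequencing of mouse lungs injured with bleomycin, a drug that causes lung fibrosis when given into the airways. A cell was counted as an alveolar macrophage when at least 3 of the 6 genes Chil3, Ear2, Ear1, Plet1, Atp6v0d2 and F7 each had 1 or more unique molecular identifiers (UMIs, which count captured RNA molecules). It also had at least 1 UMI of Ptprc, which encodes the leukocyte antigen CD45, at most 1 UMI of Arg1, and none of Cd3e, Cdh5, Pdgfra or Epcam, which mark T, endothelial, mesenchymal and epithelial cells. Of 32121 deposited cells, 30860 had 200 to 7500 genes and at most 15% mitochondrial UMIs, and 971 of these met the rule. Because the rule read expression, the levels of its 12 genes are given here as descriptions and not as findings.

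The study compared 2 wild-type (WT) mice with 2 Tubb3-/- mice, and all 4 received bleomycin at 0.8 U/kg into the trachea 14 days before the lungs were taken, so that no untreated lung was included. The Tubb3-/- animals were homozygous for a Tubb3-Cre knock-in allele, which places Cre where the Tubb3 protein would begin, and the WT animals were their littermates. Mice of 8 to 11 weeks were used. Each lung gave a whole-cell library, from which red cells had been removed, and a mural cell-enriched library, from which CD45-bearing, endothelial, epithelial and red cells had been depleted on magnetic beads. For the latter, the pooled cells were then sorted into a mural fraction (MCAM-positive, PDGFRα-negative) and an MCAM-negative fraction, and these were mixed in equal parts. With CD45-bearing cells depleted there, the members came almost all from the whole-cell libraries. These gave 210 and 245 cells in WT mice 1 and 2, and 260 and 233 in Tubb3-/- mice 1 and 2. The mural cell-enriched libraries added 2 and 8 cells in WT and 5 and 8 in Tubb3-/-.

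Alveolar macrophages live on the airspace side of the alveolar wall, where they take up and break down surfactant lipid and inhaled particles. Their identity depends on GM-CSF from the alveolar epithelium and on the nuclear receptor PPARγ, and they are known for high expression of lipid-handling genes, of the lectin Siglec-F and of the chitinase-like protein encoded by Chil3. After lung injury, part of the resident pool is lost and monocytes enter the airspace and take on alveolar macrophage features over the following weeks, with genes such as Spp1, Trem2, Gpnmb and Apoe commonly seen in the recruited cells.

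In the whole-cell libraries, the members had median UMI counts per cell of 20521 to 25023 across the 4 mice, median gene counts of 4492 to 4910 and a median mitochondrial share of 3.6% to 3.7%. The 2 Tubb3-/- libraries were the deeper ones in both kinds of library. Summed over both libraries of a mouse, the members gave 4423391 and 5219953 UMIs in WT and 6394532 and 5462525 in Tubb3-/-. The targeted gene, Tubb3, which encodes βIII tubulin, had 415 and 219 UMIs over all cells within the limits in WT, against 80 and 68 in Tubb3-/-. Among the alveolar macrophages, it had 2 and 4 UMIs in WT and 0 in both Tubb3-/- mice, a ratio of at least 2.46 with the limit of 3 counts over the Tubb3-/- group. Cre had 0 UMIs in all cells of the WT mice, 3 and 1 in those of the Tubb3-/- mice and none in the members. Of 32062 distinct cell barcodes, 59 occurred in more than 1 library, none of them within a pool, and 3 members carried such a barcode. Scrublet marked 6 members as doublets.

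The label was checked with markers that the rule did not read, and it held for only part of the members. All 6 genes were detected in 424 members (43.7%), 5 genes in 243 (25%), 4 genes in 69 (7.11%) and 3 genes in 235 (24.2%). Just outside the rule, 2981 cells within the limits had 2 of the 6 genes. In the whole-cell libraries, Siglecf, which encodes the surface lectin that defines murine alveolar macrophages in flow cytometry, had a UMI in 72.8% of the members with 5 or 6 genes but in 7.27% of those with 3 or 4 genes. The latter share stood beside 2.84% in 141 interstitial macrophages, chosen by a gate on interstitial macrophage genes such as C1qa, C1qc, Ms4a7, Pf4 and Cx3cr1, and 1.13% in 5578 cells without a Ptprc UMI. The scavenger receptor Marco was detected in 43.1%, 5.54%, 5.67% and 2.17% of the same classes in that order. The lipid-binding protein gene Fabp1 was detected in 48.6%, 2.08%, 0% and 1.13%, where 0 of 141 cells allows a share of up to 2.13%. Pparg, the nuclear receptor of the lineage, was detected in 93.2%, 33.6%, 24.8% and 5.75%. Median UMIs per cell were 23665, 16382, 11722 and 11398 in these classes, so part of the differences in detection moves with depth.

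Members with 3 or 4 genes carried markers of other cells. Ccr2, the receptor that brings monocytes into tissue, had a UMI in 43.3% of them against 21.1% of the members with 5 or 6 genes. The complement gene C1qa, which the interstitial gate reads, had a UMI in 26.3% and 19.0%. Chil3, a gene of the rule, had a UMI in 66.6% of cells without a Ptprc UMI, at a mean of 1.38 UMIs per cell, and the source of these UMIs was not tested. As a class, the cells with 5 or 6 genes are named as alveolar macrophages on Siglecf, Marco, Fabp1 and Pparg. Those with 3 or 4 genes are called only by the rule. The name does not hold for every cell of the class. In cluster 3, described below, 60.1% of the cells had 5 or 6 genes. Siglecf was detected in 29.4% of that cluster, Marco in 5.88% and Fabp1 in 9.80%. Clusters led by genes of other cell types also held cells with 5 or 6 genes.

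**Figure D1:**
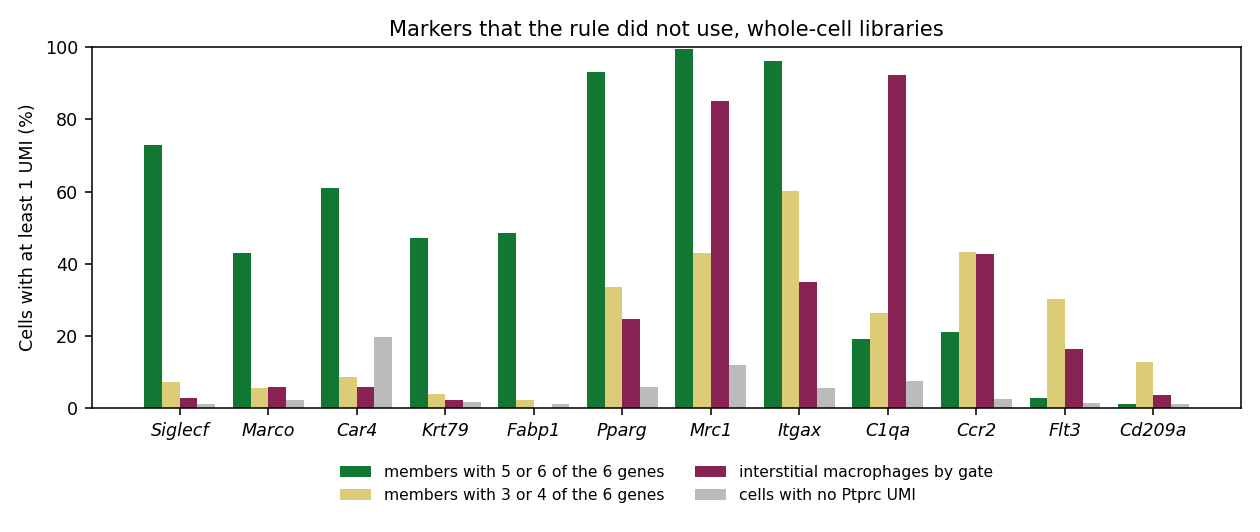
Percent of cells with at least 1 UMI (vertical axis) of 12 genes that the rule did not read, in 4 classes of cells of the whole-cell libraries: 659 members with 5 or 6 of the 6 genes, 289 members with 3 or 4, 141 interstitial macrophages and 5578 cells without a Ptprc UMI. Siglecf falls from 72.8% to 7.27% between the first and the second class, while Flt3 and Cd209a are highest in the second.

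The lineage genes of the rule also left out many cells that resembled members. Of 1031 cells of the whole-cell libraries with all 6 genes, 588 had at least 1 UMI of Cd3e, Cdh5, Pdgfra or Epcam. Allowing 1 UMI of each of these genes, an alternative chosen after seeing the data, raised the share of members in the whole-cell libraries to 10.1% and 12.9% in WT and 10.4% and 11.4% in Tubb3-/-. The limit on Arg1 removed cells too. In these libraries, 60 of 529 cells with 5 genes and 56 of 1031 with 6 genes had more than 1 Arg1 UMI. What these cells would add to the comparison of genotypes was not tested.

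Clustering without the rule's genes split the 971 members into 10 groups. These are described by their leading genes, which are among the first by ratio of CPM (UMI counts scaled to the same library total) to the other members. Cluster 1, the largest at 278 cells, led with the cysteine protease gene Ctsk at 1074 CPM against 386 in the other members, and with the carbonic anhydrase gene Car4 at 300 against 114. Cluster 2 (241 cells) led with Fabp1 at 192 against 37.5 CPM, the keratin gene Krt79 at 240 against 53.1 and the leptin receptor gene Lepr at 934 against 213. Both clusters had 5 or 6 of the genes in 97.5% of their cells, and Siglecf was detected in 74.8% and 80.5% of them.

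Cluster 3 (153 cells, 60.1% with 5 or 6 genes) led with macrophage genes of another kind. The elastase gene Mmp12 stood at 1481 CPM against 43.1 in the other members, the lipid carrier gene Apoe at 12521 against 396 and the complement gene C1qa at 1282 against 57.1. Its cells had Spp1, the gene of the matrix protein osteopontin, at 13007 CPM, with a UMI in 100% of them, against 2638 in cluster 1 and 1161 in cluster 2. Siglecf was detected in 29.4% of this cluster. Cluster 8 (26 cells, 88.5% with 5 or 6 genes) led with the replication genes Rrm2 and Pclaf, at 267 and 698 CPM against 3.87 and 15.2, and the proliferation marker Mki67 had a UMI in 96.2% of it.

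The remaining clusters led with genes of other cell types and were for the most part short of the 6 genes. Cluster 4 (91 cells, 1.10% with 5 or 6 genes) led with the dendritic cell genes Il12b at 183 against 0.510 CPM and Cd209a at 277 against 2.24, and its Chil3 level was 194 CPM against 11659 in cluster 1. Cluster 5 (75 cells, 5.33%) led with the monocyte genes Plac8 and Ly6c2 at 2368 and 503 CPM, with a median of 8414 UMIs per cell. Cluster 6 (51 cells, 43.1%) led with Retnla and the cytotoxic granule gene Gzma, and haemoglobin genes were among its first 5. Cluster 7 (27 cells, 44.4%) led with smooth muscle genes, Tagln at 3236 against 18 CPM. Cluster 9 (21 cells, 28.6%) led with immunoglobulin genes, Igha at 25224 against 7.84 CPM, and cluster 10 (8 cells, 12.5%) with the mesothelial genes Msln and Upk3b. Sizes of clusters were not tested between genotypes, since genes that lead cluster 2 differed between them. The mix of clusters did differ, in that cluster 2 was the largest in both WT mice (26.9% and 45.5%, against 7.92% and 19.9% in Tubb3-/-) and cluster 1 in both Tubb3-/- mice (38.1% and 30.3%, against 25.9% and 19.4% in WT). The expression differences given further on, such as those of Fabp1, Krt79 and Spp1, are over all clusters, and a change within cells cannot be told apart from this mix.

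**Figure D2:**
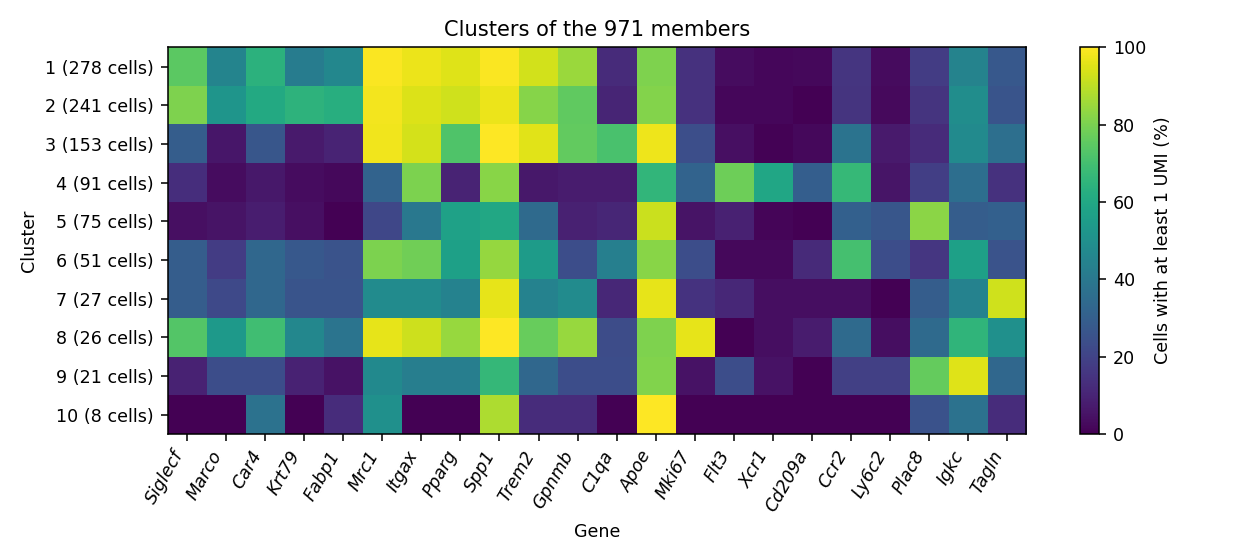
Percent of the cells in each of 10 clusters of the 971 members (rows, with their number of cells) with at least 1 UMI of 22 genes (columns), shown as colour from 0% to 100%. Clusters 1, 2 and 8 hold Siglecf, Marco and Car4, cluster 3 adds C1qa in 71.2% of its cells, cluster 4 holds Flt3 and Xcr1, and Spp1 is detected in at least 60.0% of every cluster.

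Genes that set the members apart from all other cells of the whole-cell libraries were ranked by the lowest of the 4 mice's log2 ratios, as a description. Rank 1 was held by the serotonin receptor gene Htr2c, with a mean of 147 CPM against 22.0 in the other cells and a lowest log2 ratio of 2.59. Among the first 20 were 4 genes of the rule, which were Atp6v0d2, Ear2, Chil3 and F7, the sterol transporter gene Abcg1 (755 against 150 CPM) and the lipid droplet gene Cidec (98.8 against 18.3). The potassium channel interacting protein gene Kcnip4 had 1740 against 313 CPM and 28.4 in the interstitial macrophages. Cidec was listed at 0 in the interstitial macrophages. The lipid receptor gene Trem2, in contrast, had 251 CPM in the members and 249 in the interstitial macrophages. The other leading genes were Nrg4, Ucp3, Gpnmb, Ms4a8a, Tfec, Mcoln3, Lilra5, Wfdc21, Ltc4s, Slc9a4 and C530008M17Rik. The other cells included those with members' genes that the lineage limits had removed, so these ratios are lower than they would be against cells of other types alone.

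The number of alveolar macrophages was then compared between the genotypes, as a share of cells in the whole-cell libraries. The share was 6.17% (95% exact binomial interval 5.38 to 7.03) and 7.86% (6.93 to 8.86) in the WT mice, and 6.22% (5.51 to 7.0) and 6.74% (5.93 to 7.63) in the Tubb3-/- mice. The groups overlapped, since both Tubb3-/- mice lay between the WT mice. The means were 7.01% ± 1.19 and 6.48% ± 0.368 (SD, n = 2 mice each), a difference of -0.529 percentage points with p = 1.00 in a two-sided exact permutation test, whose smallest possible p with 2 against 2 mice is 0.33. Without WT mouse 2 the difference turned to 0.316. These intervals cover counting error only.

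The members with 5 or 6 genes made up 4.14% and 6.16% of cells in WT and 4.26% and 4.28% in Tubb3-/-. When every cell was thinned to 3000 UMIs before the rule was applied, which left 3169 and 2958 WT cells and 3949 and 3257 Tubb3-/- cells of at least that depth, the shares were 8.08% and 10.6% in WT and 7.93% and 7.95% in Tubb3-/-. With 5 or 6 genes after thinning, they were 5.11% and 7.64% in WT and 3.9% and 4.02% in Tubb3-/-, a difference of -2.42 points with both Tubb3-/- mice below both WT mice (p = 0.33, exact permutation test). Ear1, which is among the 6 genes, was itself lower in the Tubb3-/- members, with 173 and 391 CPM in WT against 75.7 and 54.3. A share that requires 5 of the 6 genes therefore reads the level of these genes as well as the number of cells, and the 2 cannot be told apart at a fixed depth. As a share of cells with a Ptprc UMI, the members were 9.36% and 13.1% in WT and 10.6% and 11.5% in Tubb3-/-.

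**Figure D3:**
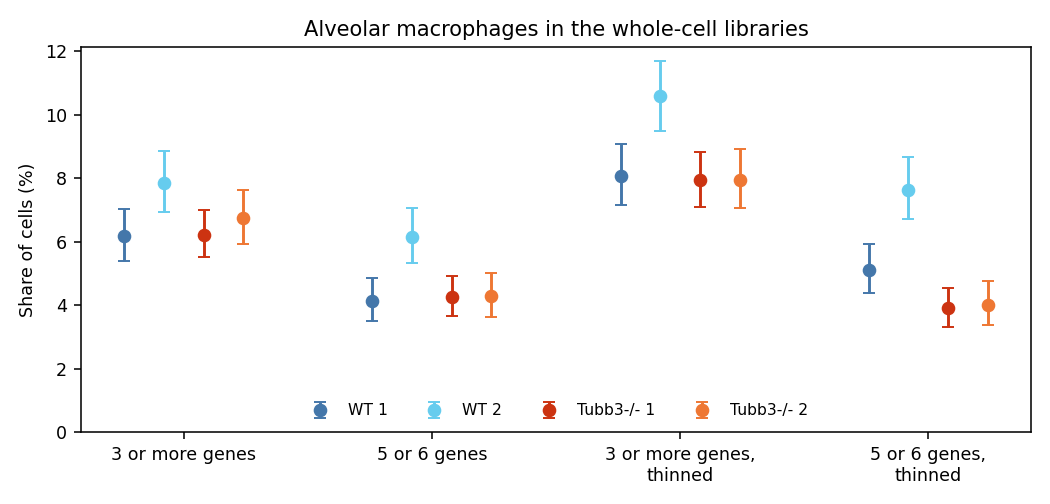
Alveolar macrophages as percent of cells in the whole-cell libraries (vertical axis) for each of the 4 mice, with the rule as given (3 or more genes), with 5 or 6 genes, and with each of these in cells thinned to 3000 UMIs; bars are 95% exact binomial intervals of single libraries. The groups overlap in the first pair of settings, and WT mouse 2 stands highest in all 4.

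Expression in the members was next compared between Tubb3-/- and WT mice by edgeR's quasi-likelihood test on UMIs summed per mouse, with p-values adjusted by the Benjamini-Hochberg method and a threshold of 0.05. CPM in these tests carry edgeR's TMM scaling, those of cells outside the members and of summed marker lists do not, and fold changes are log2 of Tubb3-/- over WT ± SE. None of 12005 genes tested passed (0% called), with 1192 genes (9.93%) at an unadjusted p under 0.05, 546 of them above WT (4.55%) and 646 below (5.38%). DESeq2 called 74 genes (0.616%) and limma-voom called 0 on the same sums. The calls depended on single mice, with 591 genes called without WT mouse 1, 132 without WT mouse 2, 1 without Tubb3-/- mouse 1 and 0 without Tubb3-/- mouse 2.

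The members with 3 or 4 genes differed between mice in what they carried. Over these cells alone, 6 B and plasma cell markers summed to 9389 CPM in WT mouse 1 against 75.7, 378 and 449 in the others, and 7 neutrophil markers to 5157 CPM in WT mouse 2 against 540, 218 and 97.7. In the members with 5 or 6 genes, the same lists summed to 46.6 to 86.1 and 180 to 411 CPM. The test was therefore repeated on the members with 5 or 6 genes, a choice made after seeing the data. These were 141 and 196 cells in WT and 179 and 151 in Tubb3-/-. All 6 genes were present in 99 and 162 of them in WT and 93 and 70 in Tubb3-/-. Exactly 5 were present in 42 and 34 against 86 and 81. Ear1, among the 6 genes, was itself lower in Tubb3-/-, so the choice of these cells is tied to genotype. Its part in the results on these cells was not tested.

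In those cells 62 of 10942 genes passed (0.567% called), 37 above WT (0.338%) and 25 below (0.228%). At an unadjusted p under 0.05, 780 genes were higher (7.13%) and 729 lower (6.66%). The 971 members hold these cells, so the test over all of them is no second test of these genes. DESeq2 and limma-voom called 55 and 61 of them in the cells with 5 or 6 genes. Leaving out a mouse left 53 of the 62 called without WT mouse 1, 9 without WT mouse 2, 25 without Tubb3-/- mouse 1 and 62 without Tubb3-/- mouse 2. The lone mouse of a group is then assumed to vary like the pair in the other. Spp1, Lyz2, Cidec, Grap2, Cacna1d and Apoc2 passed in all 4 of these. Ear1, a gene of the rule, is counted among the 62 and the 25, and is not a finding, since the cells were chosen on it. Values in the following are from the members with 5 or 6 genes unless stated. The gene lists used below were chosen with earlier results of these data known. Their counts, given beside the share over all genes, are therefore descriptions and no independent test of a list.

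Part of the genes of resident alveolar macrophage identity fell in Tubb3-/-, among them lipid and keratin genes. Of 20 listed markers, all tested, 3 passed in the lower direction and 8 had an unadjusted p under 0.05 in that direction, against 1 in the other, while the median fold change was -0.10 beside 0.00 over all genes. Fabp1 (chr6:71199827-71205023), a fatty acid binding protein gene, had 124 and 197 CPM in WT and 21.9 and 51.9 in Tubb3-/-. The groups did not overlap, as was so for 22.0% of all genes in this direction, and the change was -2.16 ± 0.34 (adjusted p = 0.0344). Cidec (chr6:113424634-113435760), whose product coats lipid droplets and promotes their growth, had 169 and 186 CPM in WT against 68.7 and 76.5 (-1.29 ± 0.11, adjusted p = 0.0100). The keratin gene Krt19 (chr11:100140810-100148665) had 311 and 390 CPM in WT against 118 and 159 (-1.35 ± 0.16, adjusted p = 0.0221). Without WT mouse 2, adjusted p-values were 0.189 for Fabp1, 0.0759 for Krt19 and 0.0321 for Cidec.

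Other members of that list lay near the threshold or far from it. Krt79 had 150 and 266 CPM in WT and 26.7 and 70.2 in Tubb3-/-, a difference of -2.14 with an adjusted p of 0.0584. Siglecf had 108 in both WT mice and 53.7 and 87.2 in Tubb3-/- (adjusted p = 0.204). Abcg1 had 981 and 1188 against 750 and 855 CPM, and the adhesion molecule gene Cd2 had 249 and 252 against 155 and 196, neither of which passed. For other genes that define the cells the groups overlapped or lay close together. The mannose receptor gene Mrc1 had 1050.1 and 1142 CPM in WT and 1033 and 1231 in Tubb3-/-, Pparg 272 and 262 against 247 and 241, and Itgax, the gene of the integrin CD11c, 273 and 281 against 271 and 300. Marco differed as much within WT, at 109 and 236 CPM, as between the genotypes, at 218 and 211 in Tubb3-/-.

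The 6 genes of the rule are given without a test. Ear1, an eosinophil-associated ribonuclease gene, had 243 and 459 CPM in WT and 101 and 78.2 in Tubb3-/-. Ear1 and Ear2 are close copies of each other, and how reads shared between them were assigned is not given in the sources used here. Ear2 had 1136 and 1460 CPM in WT and 981 and 957 in Tubb3-/-, and Chil3 had 9852 and 11321 against 8502 and 10028. Atp6v0d2, a proton pump subunit gene, had 989 and 922 against 968 and 981. Plet1, which encodes a surface protein, had 1469 and 1463 against 1140 and 1283, and F7, the gene of coagulation factor VII, 352 and 322 against 422 and 377.

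Spp1, Trem2 and Cd63, which belong to a set of genes known from macrophages of fibrotic lung, rose in Tubb3-/-. Of 15 such genes these 3 passed, 12 had a fold change above 0, 10 had an unadjusted p under 0.05 in that direction and 1 in the lower, and the median was 0.59 beside 0.00 over all genes. Spp1 (chr5:104435118-104441050) had 2413 and 1678 CPM in WT and 5913 and 4968 in Tubb3-/-. Both Tubb3-/- mice stood well above both WT mice, as did 23.3% of all genes by any margin, and the change was 1.41 ± 0.16 (adjusted p = 0.0173). The median cell had 19 and 16 Spp1 UMIs in WT and 46.5 and 36.0 in Tubb3-/-. In cells without a Ptprc UMI, Spp1 had 187 and 647 CPM in WT and 1611 and 382 in Tubb3-/-, where the groups overlapped. Trem2 (chr17:48346401-48354147) had 183 and 199 CPM in WT and 352 and 305 in Tubb3-/- (0.78 ± 0.11, adjusted p = 0.0278). Cd63 (chr10:128900989-128912822), a tetraspanin of late endosomes, had 704 and 683 against 1087 and 1004 (0.59, adjusted p = 0.0278).

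Spp1 passed without each mouse in turn, with adjusted p-values of 9.87e-05 to 0.0126. Trem2 and Cd63 did not pass without WT mouse 2, at 0.0917 and 0.109, or without Tubb3-/- mouse 1, at 0.0764 and 0.137. Further genes of the list showed the same order of the groups without passing. Gpnmb, which encodes a membrane glycoprotein of phagocytes, had 173 and 222 CPM in WT and 352 and 306 in Tubb3-/- (adjusted p = 0.0604). The fatty acid binding protein gene Fabp5 had 1170.1 and 854 against 1762 and 1402, and Mmp12 had 30.6 and 78.4 against 159 and 146. Apoe had 519 and 275 against 1646 and 638 CPM, beside 1401, 1251, 1044 and 1081 in the cells of the same mice without a Ptprc UMI, and its median was 2 UMIs per member in every mouse. The tetraspanin gene Cd9, the lectin gene Lgals3 and the fibronectin gene Fn1 did not have an unadjusted p under 0.05. Tgfb1, the gene of transforming growth factor β1, was lower at 215 and 206 CPM in Tubb3-/- against 242 and 273 in WT, an estimate of -0.29 with an adjusted p of 0.26. Of the genes higher in monocytes and interstitial macrophages, 5 of 13 tested had an unadjusted p under 0.05, all of them higher in Tubb3-/-, and none passed. C1qa was among them, with 70.6 and 11 CPM in WT and 168 and 64.5 in Tubb3-/-.

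**Figure D4:**
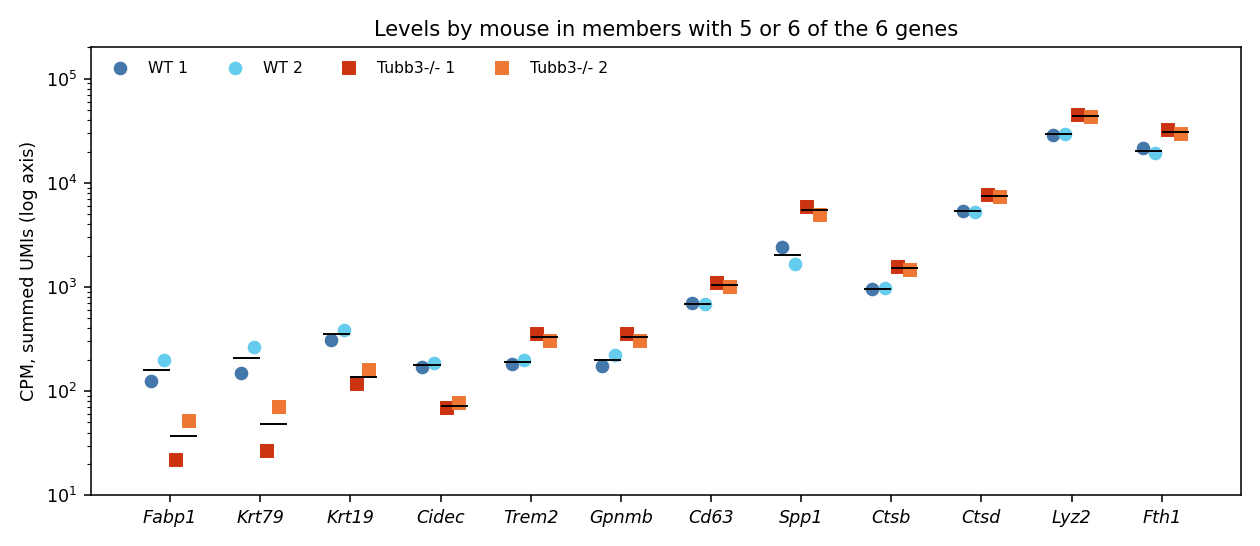
CPM of 12 genes (log axis) in members with 5 or 6 of the 6 genes, with 1 symbol per mouse and the mean of each genotype as a line. The Tubb3-/- mice lie below both WT mice for Fabp1, Krt79, Krt19 and Cidec and above them for the other 8 genes; Krt79 and Gpnmb did not pass the test.

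Of the lysosomal genes, Ctsb and Ctsd rose in Tubb3-/-. All 18 listed genes had a fold change above 0, against 50.5% of all genes, 13 had an unadjusted p under 0.05, only these 2 passed, and the median was 0.30. The cathepsin B gene Ctsb (chr14:63122462-63145923) had 965 and 970 CPM in WT and 1569 and 1454 in Tubb3-/- (0.64 ± 0.08, adjusted p = 0.0248). The cathepsin D gene Ctsd (chr7:142375911-142388038) had 5379 and 5261 against 7658 and 7307 (0.49 ± 0.06, adjusted p = 0.0248). The asparaginyl endopeptidase gene Lgmn had 266 and 270 against 409 and 365 (0.53, adjusted p = 0.0604), and Cd68, the gene of a lysosomal membrane protein used to stain macrophages, 479 and 456 against 610 and 513 (0.27, adjusted p = 0.312). The membrane protein gene Lamp1 had 859 and 850 against 1019.9 and 968 CPM. Over all 971 members, all 18 were again above 0, with a median of 0.26, 8 at an unadjusted p under 0.05 and none called. Without Tubb3-/- mouse 1, none passed, and the median in the cells with 5 or 6 genes was 0.24.

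Since the fold changes of this list had 1 sign, its promoters were searched for the letters TCACGTG, the core of the element through which TFEB and its relatives drive lysosomal genes, on both strands, where the reverse strand reads CACGTGA. In the 300 bases from 250 before to 50 after the RefSeq start (GRCm38.p6), 13 of the 18 genes had an entry, and Ctsd, Lamp1 and Lgmn held a match. This compares with 1237 of 32851 promoters of all genes (3.77%). The 250 bases before the start are shown 5′ to 3′ on the gene's strand with each match in capitals, for chr7:142387828-142388077 (minus strand), chr8:13158911-13159160 (plus strand) and chr12:102439093-102439342 (minus strand).
Ctsd: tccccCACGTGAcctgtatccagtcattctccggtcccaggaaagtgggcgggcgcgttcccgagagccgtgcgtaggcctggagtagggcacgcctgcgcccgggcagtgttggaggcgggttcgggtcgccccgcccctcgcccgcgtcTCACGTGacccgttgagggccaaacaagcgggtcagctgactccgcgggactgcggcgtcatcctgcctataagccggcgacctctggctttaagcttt
Lamp1: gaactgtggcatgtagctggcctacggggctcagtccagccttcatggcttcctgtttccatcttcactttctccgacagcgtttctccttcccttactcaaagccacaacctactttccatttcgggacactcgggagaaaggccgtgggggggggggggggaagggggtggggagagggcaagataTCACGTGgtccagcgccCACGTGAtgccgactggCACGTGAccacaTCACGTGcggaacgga
Lgmn: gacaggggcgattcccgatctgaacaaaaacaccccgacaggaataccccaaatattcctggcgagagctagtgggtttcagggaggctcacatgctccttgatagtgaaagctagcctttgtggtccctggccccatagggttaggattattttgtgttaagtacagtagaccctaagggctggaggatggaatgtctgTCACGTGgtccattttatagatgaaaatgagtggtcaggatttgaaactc
Lamp1 held 4 matches, all within 62 bases of the start, Ctsd held 2 and Lgmn 1. Ctsb was not among the genes with a match, and Lamp1 and Lgmn did not pass the test. The annotated genes span chr12:102394084-102439813 for Lgmn and chr7:142375911-142388038 for Ctsd. The Lgmn stretch therefore lies wholly inside its gene, before an internal RefSeq start, and the Ctsd stretch partly inside its gene. A match is a run of letters and not a measured binding site.

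Genes with related roles included the highest-expressed gene that passed. Lyz2 (chr10:117277331-117282321), which encodes lysozyme, had 28903 and 29638 CPM in WT and 45166 and 42658 in Tubb3-/- (0.59 ± 0.05, adjusted p = 0.0100). In cells without a Ptprc UMI it had 1402 and 2173 CPM in WT and 577 and 626 in Tubb3-/-, the opposite order. The ferritin genes Fth1 and Ftl1, which store iron, had 21648 and 19143 against 31975 and 29176 CPM (0.58, adjusted p = 0.0248) and 10032 and 9533 against 14552 and 13020 (0.49, adjusted p = 0.0278). Of 12 iron and redox genes tested, these 2 passed, 5 were higher and 1 lower at an unadjusted p under 0.05, and the median was 0.21. The haem oxygenase gene Hmox1 was the lower one, with 227 and 273 CPM in WT and 208 and 167 in Tubb3-/-. Without Tubb3-/- mouse 1, Fth1, Ftl1, Ctsb and Ctsd did not pass, with adjusted p-values of 0.0880, 0.169, 0.0797 and 0.150, and without WT mouse 2, Ftl1 and Ctsb did not, at 0.0759 and 0.0632.

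Genes of cholesterol synthesis had fold changes above 0 without exception, yet none passed. All 20 were above 0 both in the cells with 5 or 6 genes and over all members, with medians of 0.84 and 0.72. Over all genes, 50.5% and 51.2% were above 0. Of the 20, 16 and 6 had an unadjusted p under 0.05, all higher, beside 7.13% and 4.55% of all genes. In 16 of the 20 both Tubb3-/- mice were above both WT mice in the cells with 5 or 6 genes, as in 23.3% of all genes. The squalene synthase gene Fdft1 had 27.5 and 13.6 CPM in WT and 50.4 and 48.8 in Tubb3-/- (1.32, adjusted p = 0.0774). Idi1, an isomerase gene of the pathway, had 69.6 and 24.0 against 125 and 90.8, and Hmgcs1, which encodes the enzyme ahead of HMG-CoA reductase, 128 and 66.3 against 170 and 155 (0.76, adjusted p = 0.217). WT mouse 2 was the lowest in the genes named here. Without it the median was 0.43, with 19 of 20 above 0 in the cells with 5 or 6 genes, and without WT mouse 1 it was 1.37, with 15 genes called.

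The sterol regulatory element, searched as TCACCCCAC on both strands, was found in 1 of the 13 cholesterol genes with a promoter entry, which was Hmgcs1, and in 181 of 32851 promoters (0.551%). The match starts 137 bases before the start of Hmgcs1, in chr13:119690101-119690350 (plus strand), and is shown in capitals.
Hmgcs1: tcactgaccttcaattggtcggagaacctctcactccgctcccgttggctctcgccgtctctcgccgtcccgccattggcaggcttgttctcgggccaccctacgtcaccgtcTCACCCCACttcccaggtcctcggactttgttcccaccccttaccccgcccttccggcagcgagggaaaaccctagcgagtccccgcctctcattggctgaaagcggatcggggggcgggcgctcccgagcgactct
Insig1 and Sc5d of the same list held TCACGTG. The motif TCACGTG was in none of 13 fibrosis-related genes with an entry and in 1 of 12 resident markers, Bhlhe41, and TCACCCCAC was in none of the promoters of these lists or of the lysosomal list.

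Lipid genes outside sterol synthesis did not move together. Of 20, 5 were higher and 5 lower at an unadjusted p under 0.05, with a median of -0.07, and only the desaturase gene Scd2 passed, at 43.4 and 45.8 CPM in WT and 74.5 and 82.8 in Tubb3-/- (0.81, adjusted p = 0.0278; 0.144 without WT mouse 2). The elongase gene Elovl6 had 51.4 and 61.3 against 29.1 and 44.4, and the scavenger receptor gene Msr1 84.6 and 56.4 against 123 and 101, neither of which passed. Lipoprotein lipase, encoded by Lpl, had 1339 and 2079.5 CPM in WT and 1574 and 1703 in Tubb3-/-, a spread within WT that covered both Tubb3-/- mice.

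**Figure D5:**
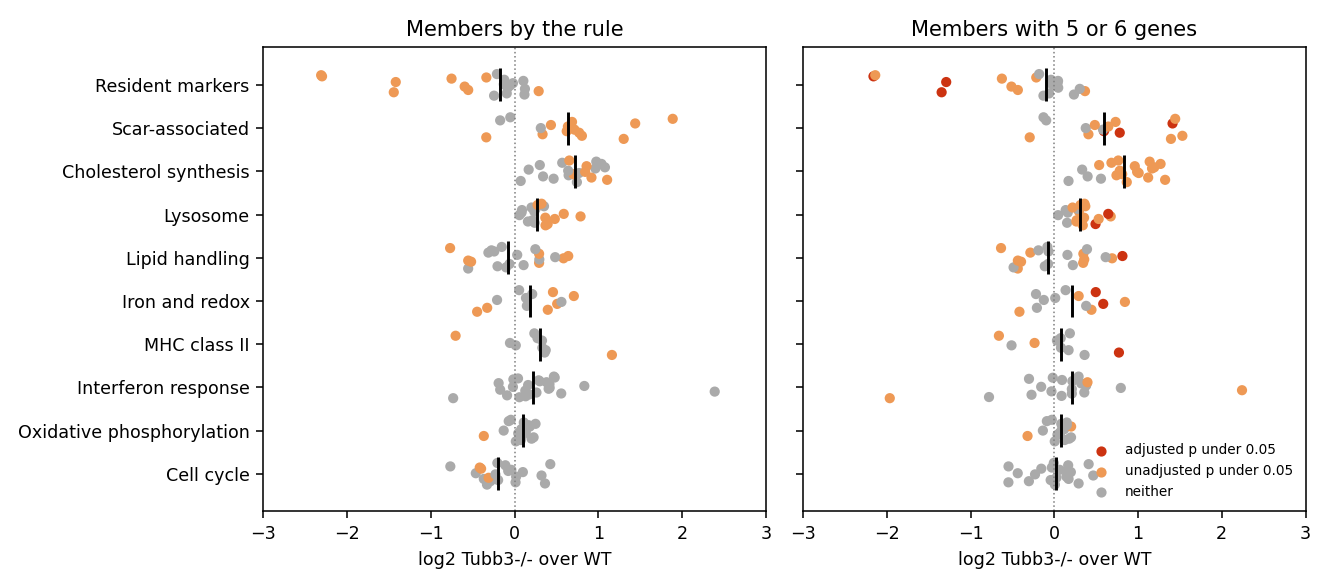
Log2 fold change of Tubb3-/- over WT (horizontal axis) for each gene of 10 lists (rows), over all members at left and over members with 5 or 6 genes at right; bars are list medians and colour marks the test. Every cholesterol synthesis and lysosome gene lies right of 0 in both panels, with medians of 0.72 and 0.26 at left and 0.84 and 0.30 at right, and 4 resident markers lie below -1.

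The neutrophil-attracting chemokine genes Cxcl1 and Cxcl2 were higher in the summed counts of Tubb3-/-. Of 19 chemokines and cytokines tested, 6 were higher and 2 lower at an unadjusted p under 0.05, beside 7.13% and 6.66% of all genes. Of the 19, 2 passed, beside 0.567% of all genes. Cxcl1 (chr5:90891241-90893115) had 133 and 149 CPM in WT and 263 and 259 in Tubb3-/- (0.88, adjusted p = 0.0173), and its neighbour Cxcl2 (chr5:90903871-90905938) had 816 and 960 against 1385 and 1280 (0.58, adjusted p = 0.0487). Neither passed without WT mouse 2, at adjusted p-values of 0.0540 and 0.0545, and Cxcl2 did not pass without WT mouse 1 (0.0537) or Tubb3-/- mouse 1 (0.175). In the whole-cell libraries, Cxcl1 had a median of 1 UMI per cell in every mouse and a UMI in 51.0% to 60.1% of these cells. In cells without a Ptprc UMI, it had 463 and 175 CPM in WT and 176 and 114 in Tubb3-/-. The median of Cxcl2 was 3 and 5 UMIs in WT and 9 and 10.5 in Tubb3-/-. Over all members, Cxcl1 had 303.9 and 136 CPM in WT and 316 and 314 in Tubb3-/-, so WT mouse 1 lay close to both Tubb3-/- mice. The inflammatory cytokine gene Il1b had 669 and 614 against 781 and 874 CPM (adjusted p = 0.14), and Ccl6, a chemokine gene of high level in these cells, 5338 and 4953 against 4325 and 4529.9. Cxcl10, the interferon-induced chemokine gene that the study followed in pericytes, had 8.62 and 26.6 CPM in WT and 33.7 and 13.4 in Tubb3-/-, so the groups overlapped. Its receptor gene Cxcr3 had 7 and 11 UMIs in all members of the WT mice and 18 and 24 in those of the Tubb3-/- mice, which is 1.59 and 2.02 against 2.90 and 4.48 CPM (1.00, unadjusted p = 0.065 from edgeR over all members).

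Antigen presentation showed 1 call among 10 genes. The costimulatory ligand gene Cd86 had 76.6 and 69.1 CPM in WT and 130 and 118 in Tubb3-/- (0.77, adjusted p = 0.0278), whereas over all members it had 207 and 101 against 195 and 200 CPM. The invariant chain gene Cd74 had 1363 and 605 against 1336 and 874. Cd80, the other costimulatory ligand gene, had 84.6 and 107 against 49.8 and 72.7 CPM and did not pass. Cd86 did not pass without WT mouse 2 or without Tubb3-/- mouse 1, with adjusted p-values of 0.20 and 0.0839.

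Other gene groups gave no calls in the cells with 5 or 6 genes. Of 20 interferon response genes tested, 2 were higher and 1 lower at an unadjusted p under 0.05, with a median of 0.21. Of 20 cell cycle genes, none had an unadjusted p under 0.05, and Mki67 had 21.7 and 53.6 against 37.6 and 38.4 CPM. Of 17 genes of oxidative phosphorylation and fatty acid oxidation, 1 was higher and 1 lower, with a median of 0.08. Of 14 genes of glycolysis and hypoxia, 3 were higher and none lower. Of 14 receptors and transcription factors of the lineage, 4 were higher and 1 lower, and Csf2ra and Csf2rb, the genes of the GM-CSF receptor chains, had 194 and 209 against 254 and 237 CPM and 441 and 414 against 389 and 424. Of 12 genes of phagocytosis, 5 were higher and none lower. Of 14 stress and immediate early genes, 3 were higher and 2 lower. Of 7 genes of alternative activation, 1 was higher and 2 lower, and Retnla, one of these, had 141 CPM in WT mouse 1 and 5.43 to 7.41 in the other 3 mice. All these counts are at an unadjusted p under 0.05, beside 7.13% higher and 6.66% lower over all genes.

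Among calls averaging 10 CPM or more, whether listed or not but without the rule's genes, the largest changes were mostly in genes of low level. The lower ones were the potassium channel gene Kcnh4, at 14.4 and 21.0 CPM in WT and 2.61 and 2.47 in Tubb3-/- (-2.80 ± 0.32, adjusted p = 0.0173), Fabp1 (above), Cpne5 at 36.1 and 56.8 against 13.5 and 13.7 (-1.79), Hr, Gm5427 and Dtna. The higher ones were the apolipoprotein gene Apoc2, at 9.90 and 8.42 against 38.5 and 32.6 CPM (1.97), the kinase gene Prkcb, Wfdc17 at 377 and 240 against 952 and 692 (1.42), Spp1, the complement factor B gene Cfb at 62.6 and 42.1 against 153 and 119 (1.40) and the calcium channel gene Cacna1d (chr14:30039939-30491455) at 27.1 and 32.6 against 81.7 and 76.0 (1.39, adjusted p = 0.0100). Cacna1d and Apoc2 passed without each mouse in turn, and Spp1 as given above, while the others of these 12 did not pass without WT mouse 2.

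Over all 971 members, where none passed, the 12 genes in each direction with the smallest p among those with at least 10 CPM and no overlap of the genotypes had adjusted p-values of 0.345. The higher ones were Cacna1d, March1, Cxcl14, Slc15a2, Csmd1, Esd, Trem2, Cfb, Tagln, Blvrb, Acss2 and Aldh2. Cacna1d had 37.6 and 35.7 CPM in WT and 76.1 and 78.6 in Tubb3-/-, and March1, a ubiquitin ligase gene that acts on MHC class II and Cd86, 77.2 and 68.4 against 139 and 134. The lower ones were Cidec, Rhof, Plekhg1, Alox5, Dusp5, Pik3ap1, Piezo1, Pik3r6, Grap2, Tob1, Hsd3b7 and Flvcr2. Alox5, the 5-lipoxygenase gene of leukotriene synthesis, had 89.9 and 92.8 against 55.0 and 55.6 CPM, and the mechanosensitive channel gene Piezo1 89.0 and 97.8 against 57.9 and 55.2. The smooth muscle gene Tagln, at 67.8 and 83.1 against 167 and 140 CPM over all members, had the opposite sign in the cells with 5 or 6 genes (-0.84).

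Markers of other cells were followed beside these results, and their part in the results was not tested. Over all members, 9 fibroblast genes summed to 1260 and 1975 CPM in WT and 2648 and 2196 in Tubb3-/-. A fold change above 0 was seen in 9 of 9, against 51.2% of all genes. In the members with 5 or 6 genes, the fibroblast list was again above 0 in 9 of 9 genes, against 50.5% of all genes. Of the 9, 3 had an unadjusted p under 0.05, beside 7.13% of all genes in that direction. In 6 of the 9, both Tubb3-/- mice were above both WT mice, as in 23.3% of all genes. The list's sums were 1297 and 1376 against 1501 and 1463, beside 31516 to 48822 in cells without a Ptprc UMI. There, 7 mural markers summed to 267 and 119 against 95.1 and 113 CPM, 7 endothelial markers to 138 and 145 against 124 and 149, and 9 epithelial markers to 1084 and 1107 against 979 and 983. The lists of 8 T and NK cell markers and 7 dendritic cell markers summed to 19.1 to 59.5 and 14.5 to 33.1 CPM, and 5 red cell markers to 20.7 to 24.9. Among all members, the red cell list reached 278 CPM in Tubb3-/- mouse 2 against 19.7 to 24.0 in the others. The secretoglobin gene Scgb1a1 of airway club cells was detected in 100% of the members with 5 or 6 genes in the whole-cell libraries, at 738 to 856 CPM, beside 8411 to 23663 in cells without a Ptprc UMI.

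The genotype differences of alveolar and of interstitial macrophages were compared within the 4 mice, by the interaction of cell type and genotype with the mouse as a block. None of 11739 genes passed (0% called), with 710 at an unadjusted p under 0.05 (6.05%), 451 with the higher log2 change in alveolar macrophages (3.84%) and 259 with the lower (2.21%). Only 272 interstitial macrophages were available. The whole-cell libraries gave 48 and 15 of them in WT and 41 and 37 in Tubb3-/-. The mural cell-enriched libraries gave 20 and 46 in WT and 38 and 27 in Tubb3-/-. The alveolar macrophages came almost all from the whole-cell libraries, so this comparison is partly confounded with the kind of library. Spp1 had 427 and 299 CPM in the interstitial macrophages of WT and 165 and 613 in those of Tubb3-/-, against 2531 and 1491 and 5178 and 5696 in the alveolar macrophages in this fit. The difference of the log2 changes was 1.61 ± 0.463 with an adjusted p of 0.657. Cxcl2 had 5175 and 3601 CPM in interstitial macrophages of WT and 3478 and 3062 in those of Tubb3-/-, and the difference of changes was 0.927 ± 0.137 (adjusted p = 0.321). Trem2 had 310 and 306 against 305 and 282 CPM in interstitial macrophages (difference 0.833, adjusted p = 0.478).

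Of the cholesterol synthesis list, 9 of 20 genes had an unadjusted p under 0.05 in this comparison, all with the higher change in alveolar macrophages, with a median of 0.71 beside 0.01 over all genes. The fibrosis-related list had 9 of 15 (median 0.83), the lysosomal list 5 of 18 (median 0.21) and the resident markers 3 of 20 in the other direction (median -0.48). None of them passed. Across all genes, 143 were called without WT mouse 1, 19 without WT mouse 2, 5 without Tubb3-/- mouse 1 and 13 without Tubb3-/- mouse 2.

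Among all members by the rule, those of the mural cell-enriched libraries were few but differed from those of the whole-cell libraries of the same mice. With 2 to 8 cells in each of these libraries, 492 of 11264 genes passed (4.37% called), 230 higher (2.04%) and 262 lower (2.33%) in the enriched libraries, and the median over all genes was -0.17. At an unadjusted p under 0.05, 5.13% were higher and 8.92% lower. Leaving out WT mouse 2 left 182 calls and leaving out Tubb3-/- mouse 2 left 269. Apoe stood at 331 to 2528 CPM in the whole-cell libraries and at 21266 to 34350 in the enriched ones (4.28 ± 0.343, adjusted p = 9.83e-32), and C1qc at 6.91 to 172 against 1185 to 1918 (4.01). The amino acid transporter gene Slc36a2 (3.85), H2-M2 (3.81) and Cxcl9 (4.27) were the others with the largest rise, the last with 642 CPM in Tubb3-/- mouse 1 and no UMI in the other 3 enriched libraries. Cxcl9 nevertheless had an adjusted p of 3.45e-09 in edgeR's test. A low p in this comparison, with so few cells, therefore does not show that the mice agreed, and the calls are to be read with the values. Spp1 rose in each mouse, from 2500, 1423, 4856 and 5417 CPM to 7447, 3968, 23625 and 16248 (1.73 ± 0.294, adjusted p = 8.62e-07).

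Of the 20 resident markers 13 were called lower in the enriched libraries, and all 6 genes of the interstitial gate were called higher. Siglecf fell by 1.61 on the log2 scale (adjusted p = 0.0145), Fabp1 by 2.79 and Krt79 by 2.43. Chil3, a gene of the rule, had 6543 to 10058 CPM in the whole-cell members and 257 to 2999 in the enriched ones. Immunoglobulin genes Igkc and Igha, S100a9, Retnla and Ccl17 had no UMI in any enriched member. With a limit of 3 counts over these 23 cells, they were at least 134, 83.3, 36.3, 26.4 and 17.4-fold lower in that order, although single mice set these levels. In the whole-cell members, Igkc had 2834 CPM in WT mouse 1 against 31.3 to 107 in the others, Igha 1912 against at most 9.21 and Retnla 485 against 5.18 to 52.1, while S100a9 was highest in WT mouse 2, at 405 against 26.2 to 204. Without the highest mouse, a choice made after seeing the data, the bounds were 14.3 for Igkc, 1.51 for Igha and 6.44 for Retnla (each without WT mouse 1), 13.7 for S100a9 (without WT mouse 2) and 12.6 for Ccl17 (without WT mouse 1). The fibrosis-related list had 8 genes higher and 1 lower, the cholesterol list 1 lower of 20 and the lysosomal list 4 higher of 18.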

How the data were processed

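Counts of UMIs per gene and cell were deposited as 8 filtered matrices, made by the authors with Cell Ranger 7.1.0 on mm10, with Cre among the gene names. The annotation release, and whether intronic reads were counted, are not given in the sources used here. The libraries were CellPlex tagged and pooled by kind. Members and gene lists were chosen with earlier results of these data known. UMIs of members were summed per mouse and tested with edgeR 4.0.16 (filterByExpr, TMM, quasi-likelihood, threshold 0.05; R 4.3.3). DESeq2 1.42.0 and limma-voom (limma 3.58.1) were alternatives. Other alternatives were RLE scaling, no low-count filter, 1 kind of library, Scrublet doublets removed, at most 10% mitochondrial UMIs, at least 4 genes, Arg1 at 0, a replicate block and each mouse left out. On simulated counts for the comparison of genotypes over 12005 genes, changes were placed only in genes of at least 10 CPM. Of these, 59% of genes changed by a log2 of 1.0 and 87% of those changed by 1.5 were called, as were 0.19% of unchanged genes. Genes were drawn independently at the fitted dispersions, so other cells carried by single mice were not simulated. The shares therefore do not give the power over all genes tested. Shares were compared by a two-sided exact permutation test. Clusters were made with scanpy 1.11.5 and Leiden at resolution 0.5 (15 neighbours, 30 components, 2000 variable genes without the rule, mitochondrial and cell cycle genes), with resolution 1.0 as an alternative. Tags of the library's own mouse made up 88.1% to 94.7% of its tag UMIs.

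Named genes were taken from the rule's genes and genes the study followed, up to 12 genes in each direction by genotype with at least 10 CPM and no overlap of the groups, the called members of each list and otherwise up to 4 with the highest CPM, the 20 leading genes, and the 5 largest calls in each direction for the library kinds. Called list members, the 6 largest changes in each direction and the highest-expressed call were added for members with 5 or 6 genes. Gene positions are mm10 (GRCm38). The labels give 2 biological replicates per genotype. P-values rest on 2 mice a group. No proteins are shown.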

Additional observations from a re-analysis of the deposited data

How the results depend on the processing

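The limits are 2 mice a group and a rule whose low end admits other cells. Over all members, 0 genes were called by genotype, and the count was again 0 with either kind of library alone, doublets removed, the 10% mitochondrial limit, Arg1 at 0, 1 UMI of each lineage gene allowed, RLE factors and limma-voom. It was 5 with at least 4 of the 6 genes (Cacna1d, Ctsl, March1 and Trem2 higher, Cidec lower), 62 with at least 5, 60 with at least 5 and 1 lineage UMI allowed, 675 with no filter on low counts, 74 with DESeq2, 114 with at least 5 genes and DESeq2, and 71 with at least 5 genes and limma-voom. Leaving out each mouse gave 0 to 591 calls (the only call without Tubb3-/- mouse 1 was Hbb-bs), and with at least 5 genes 171 and 16 without WT mice 1 and 2 and 31 and 291 without Tubb3-/- mice 1 and 2. The share of members turned from -0.529 to 0.316 percentage points without WT mouse 2, and the 4 differences lay between -1.37 and 0.316. The comparison with interstitial macrophages gave 3 calls in whole-cell libraries only (Ly6c2, Plac8, Vcan), 190 with no filter and 5 to 143 without each mouse, and 0 under the other alternatives tried. The library kinds gave 182 to 443 calls without each mouse, and 404 to 498 under the others, of 492. Of 45 named genes in 792 alternative fits, 574 kept direction and side of the threshold, 211 were newly called and 7 turned: Tagln at -0.78 and -0.84 with at least 4 and 5 genes, Cxcl2 at -2.13, Apoc2 at -0.94, Cd86 at -0.52 and Cxcl1 at -2.25 in mural cell-enriched libraries only, and Cd86 at -0.07 without WT mouse 2, against up to 0.96 without WT mouse 1. The cause was not tested. The genes named here were chosen after their values were seen.

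With the replicate number as a block, 2 genes were called over all members (Fabp1 and Krt79, both lower) and 577 with at least 5 genes. Same-numbered mice share only a number: deviations of WT 1 and Tubb3-/- 1 from their group means correlated at -0.0194 over 8083 genes.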
